A study of Mus musculus with 2 samples.

Results

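The genes described here are the 7 microRNA genes of the paralogous miR-23, miR-27 and miR-24 clusters: Mir23a, Mir27a and Mir24-2 on mouse chromosome 8, and Mir23b, Mir27b, Mir24-1 and Mir3074-1 on chromosome 13. They were taken by gene symbol, and all 7 of 7 were found among the 2202 microRNA genes of the deposited tables. The tables come from small RNA sequencing of heart tissue from female B6CASTF1/J mice aged 2 months, the hybrid offspring of C57BL/6J and CAST/EiJ parents. There is 1 group of 2 biological replicates, untreated as far as the labels say, and no contrasting condition. The labels carry 2 animal numbers under 1 donor label and say nothing more on whether the samples came from separate mice, so differences between the libraries may be technical. The labels say heart tissue and do not say which part of the heart was taken. In tissue, fewer cells of a type and less RNA per cell cannot be told apart.

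Each cluster is a short stretch of genome from which a single primary transcript is cut into several hairpins, and each hairpin can give a microRNA from its 5′ arm and from its 3′ arm. The mature strand is loaded into an Argonaute protein and finds messenger RNAs mainly by pairing of its seed, bases 2 to 8. The clusters are known for roles in the heart and its vessels: miR-23 and miR-27 promote angiogenesis by repressing inhibitors of endothelial growth signalling, miR-23a is known as a pro-hypertrophic microRNA of heart muscle, miR-27 restrains adipogenic and lipid genes, and miR-24 acts in endothelial and heart muscle cell survival. miR-3074 is made from the strand opposite the miR-24 hairpins and is much less studied.

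The mature sequences are shown first because they decide which reads can be assigned to a gene. Sequences are RefSeq entries on GRCm38.p6 (all 7 hairpins matched, with 12 listed arms), written 5′ to 3′ in lower case with the seed in capitals. The miR-23 arms listed were these, and miR-23b-3p is named without a sequence.
miR-23a-3p: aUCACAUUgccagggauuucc
miR-23a-5p: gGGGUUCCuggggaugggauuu
miR-23b-5p: gGGUUCCUggcaugcugauuu
The miR-27 3′ arms of both clusters have the same seed, which no other name among the 1679 mature names in the table has.
miR-27a-3p: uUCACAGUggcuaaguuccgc
miR-27b-3p: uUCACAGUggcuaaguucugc
They differ by the single substitution C19U, counted from 1 at the 5′ end with the miR-27a-3p base first, so their first 18 bases are the same. Likewise, the first 18 of the 21 bases of miR-23a-3p occur unbroken in the Mir23b hairpin. A read that starts with the arm and stops at base 18 therefore has the same letters in both clusters.

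For miR-24 the 3′ arm is identical in both clusters, while the 5′ arms share a seed and their first 16 bases. miR-24-2-5p has 22 bases and miR-24-1-5p has 23. Set base against base without a gap, they differ at A17U, C19U, A20C, G21A and U22G, with miR-24-2-5p first. Both end in the same letters, cagu, so the differences from C19U on reflect the unequal lengths and are not separate substitutions.
miR-24-3p: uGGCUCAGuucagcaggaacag
miR-24-2-5p: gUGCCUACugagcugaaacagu
miR-24-1-5p: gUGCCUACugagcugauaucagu
miR-3074-5p: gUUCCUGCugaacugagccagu
miR-3074-5p, from the other strand, is complementary to miR-24-3p over 20 of its bases in 1 run, and it too occurs whole at both loci. Thus 3 of the 12 listed arms, miR-24-3p from each cluster and miR-3074-5p, lie whole at another annotated microRNA locus, and the counting assigned no gene to reads that mapped to several places. The miR-24 hairpins show this directly. Capitals below mark bases inside a 20-base window that also occurs at a microRNA gene elsewhere.
Mir24-2, chr8:84208815-84208921, plus strand: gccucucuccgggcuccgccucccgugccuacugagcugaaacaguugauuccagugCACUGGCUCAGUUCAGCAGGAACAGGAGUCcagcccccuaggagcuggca
Mir24-1, chr13:63301208-63301275, plus strand: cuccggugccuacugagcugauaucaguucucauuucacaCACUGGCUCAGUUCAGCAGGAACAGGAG
The capitals cover 30 bases of Mir24-2 and 28 bases of Mir24-1, and in both they hold the whole of miR-24-3p. In Mir23a, Mir27a, Mir23b and Mir27b a single 20-base window is shared with the paralog, and no 20-base window lying within their listed arms is. All 7 genes therefore hold shared bases, against 22.9% of the 306 detected genes. They were taken as genes of paralogous clusters, so this count is no result about them. The longest run shared by the Mir23a and Mir23b hairpins, and by those of Mir27a and Mir27b, is 20 bases, just the window length. The tables do not split counts by arm.

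In mm10 the chromosome 8 cluster is compact, spanning 404 bases on the plus strand. Mir23a lies at 84208518 to 84208592, Mir27a begins 79 bases after its end and Mir24-2 56 bases after that of Mir27a. Mir23a and Mir27a overlap no other annotated gene, and the last 2 bases of Mir24-2 overlap the long noncoding RNA gene Gm26532. The chromosome 13 cluster spans 800 bases. Mir23b (63300484 to 63300557) and Mir27b (63300712 to 63300784) are 154 bases apart, and Mir24-1 follows after 423 bases, with Mir3074-1 (63301199 to 63301283) on the minus strand covering all of its 68 bases. This cluster lies within the aminopeptidase gene 2010111I01Rik, which RefSeq names Aopep. None of its 7 coding transcripts has an exon over these hairpins. An exon of 1 other transcript covers Mir27b, and exons of 4 cover Mir24-1. The hairpins also lie within Fancc, a DNA repair gene on the minus strand, with none of its exons over them.

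**Figure D1:**
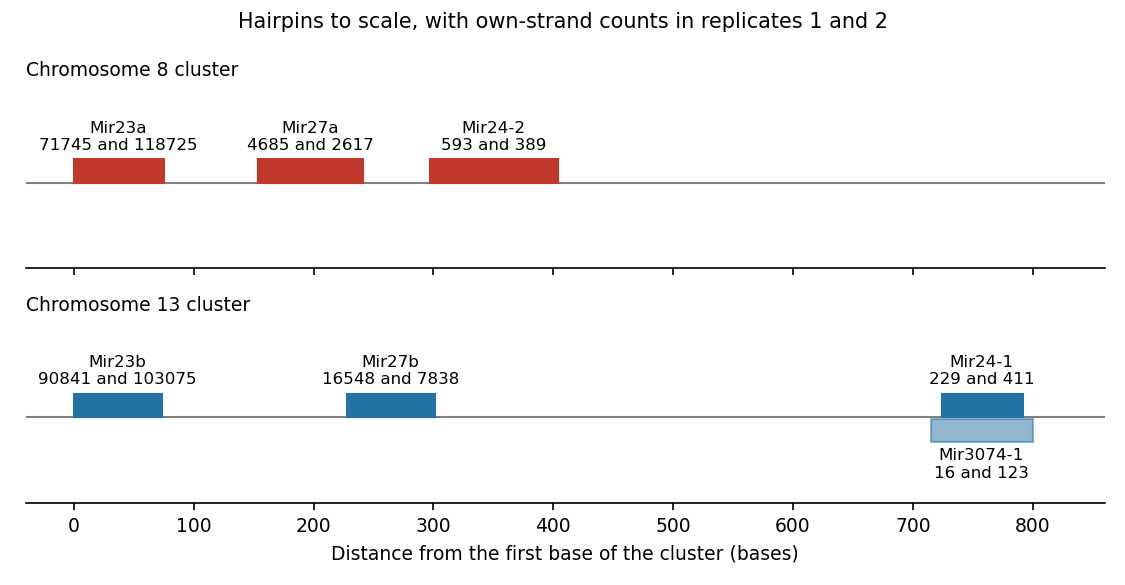
Hairpins of both clusters drawn to scale by distance in bases from the first base of each cluster, with each gene's own-strand counts in replicates 1 and 2 beside its name. Boxes under the line are on the minus strand, and counts are highest at the first hairpin of each cluster, 71745 and 118725 for Mir23a and 90841 and 103075 for Mir23b.

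The libraries held 2424441 and 2770301 reads assigned to a microRNA gene on its own strand, 30.0% and 34.7% of all their reads. Reads that mapped to several places, which include any from arms with identical copies, made up 49.5% and 42.7%. A library's microRNA gene total is the base of CPM (a gene's counts scaled to a fixed library total), and the 3 counts that a count of 0 allows correspond to 1.24 CPM in replicate 1 and to 1.08 CPM in replicate 2. Intervals given here are 95% exact Clopper-Pearson intervals or follow from them, and cover counting error only. Each read is a whole small RNA, so counts were not divided by gene length. Of the heart muscle microRNA genes, 4 of 7 were detected, that is, had 10 or more counts in each library. Mir208a, from the alpha myosin gene, stood at 1542 and 5865 CPM and Mir499 at 4354 and 2641 CPM, while Mir1a-1, Mir133a-1 and Mir133a-2 had at most 11 counts in a library. These low counts leave out any reads with several mapping places, and how many of those came from these genes was not tested. The low counts are therefore no measure of the level of these microRNAs in heart.

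All 7 genes were detected, and their mean levels ran from 37338 CPM for Mir23b down to 25.5 CPM for Mir3074-1. Together they held 7.62% of counts in replicate 1 (7.58 to 7.65) and 8.42% in replicate 2 (8.38 to 8.45). The miR-23 genes supplied 88.0% of the members' counts in replicate 1 and 95.1% in replicate 2. The miR-27 genes supplied 11.5% and 4.48%, and the miR-24 genes 0.445% and 0.343%. The members' share thus describes the miR-23 genes almost alone.

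Mir23b stood at 37469 CPM in replicate 1 and 37207 in replicate 2 (37338 ± 185, SD, n = 2), place 9 of all genes by mean level. Mir23a stood at 29592 CPM in replicate 1 and 42856 in replicate 2 (36224 ± 9379, n = 2), place 10. The range of Mir23a encloses both values of Mir23b, so their order in mean level is not beyond the spread. Mir27b followed at 6825 and 2829 CPM (4827 ± 2826, n = 2, place 30). Mir27a stood at 1932 and 945 CPM (1439 ± 698, n = 2, place 58). Both libraries had more Mir27b than either had Mir27a.

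The miR-24 hairpins were far lower. Mir24-2 stood at 245 and 140 CPM (193 ± 73.7, n = 2, place 116), from 593 and 389 counts. Mir24-1 stood at 94.5 and 148 CPM (121 ± 38.1, n = 2, place 138), from 229 and 411 counts. Their values overlapped between libraries. These counts leave out whatever part of miR-24-3p mapped to both loci, and that part was not tested, so they are no measure of the level of miR-24-3p in heart. Mir3074-1 was lowest, at 6.60 CPM in replicate 1 (3.77 to 10.7) and 44.4 in replicate 2 (36.9 to 53.0). Of the 6 steps in the order of mean levels, 4 exceeded the larger SD of the 2 neighbours, and Mir23b to Mir23a and Mir24-2 to Mir24-1 did not.

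**Figure D2:**
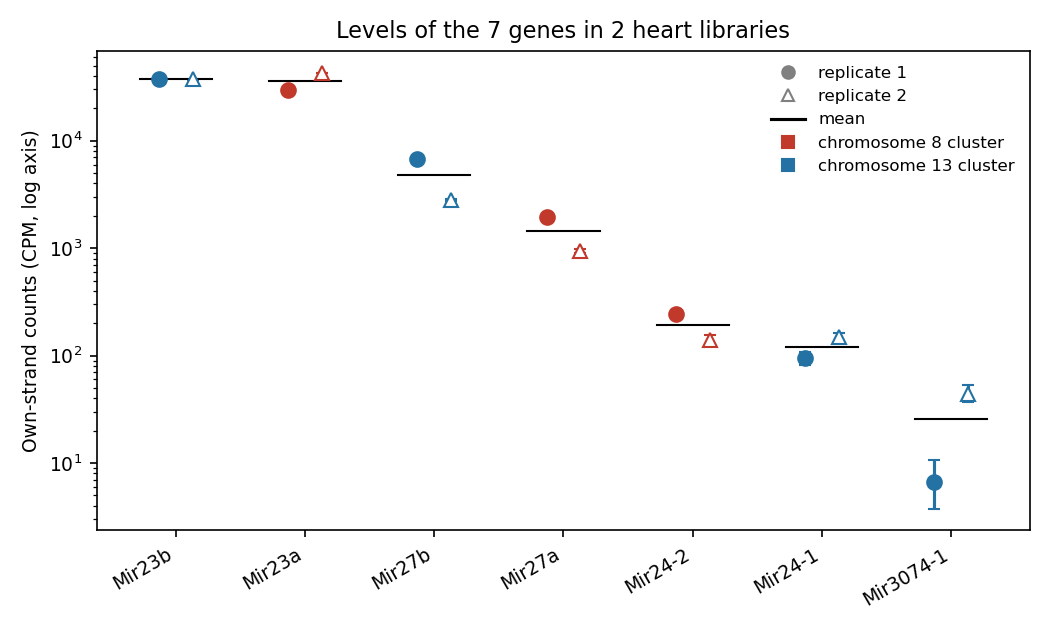
Level of each gene in CPM on a log axis, in order of the mean (black bar). Filled circles are replicate 1, open triangles replicate 2, and bars 95% exact counting intervals. Mir23b and Mir23a have means of 37338 and 36224 CPM, and Mir3074-1 at 6.60 and 44.4 CPM.

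By place among all detected genes, Mir23b and Mir23a stood between Mir143, the smooth muscle microRNA (46119 ± 3672 CPM, n = 2), and Mir22 (31799 ± 17764, n = 2). Mir27b stood between Mir30e and Mir125a, and Mir27a between Mir145a and Mir361. Likeness over both libraries was measured as the Euclidean distance of log2(CPM + 1) values, over 2 libraries. The closest gene to Mir23a was Mir23b, at 0.40, and the reverse. Mir27a was closest to Mir145a at 0.08 (1951 and 998 CPM), and Mir27b to Mir125a at 0.34 (6031 and 3467 CPM). For the miR-24 hairpins, the closest gene to Mir24-2 was Mir125b-1 at 0.16, and to Mir24-1 was Mir874 at 0.12. Mir3074-1 had no close match, with Mir677 nearest at 0.81.

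Each pair of paralogs can be compared within a library, where scaling cancels. Mir27b exceeded Mir27a in both libraries, Mir23a and Mir23b changed order between them, and Mir24-2 exceeded Mir24-1 in replicate 1 alone. The ratio of Mir27a to Mir27b was 0.283 in replicate 1 (0.274 to 0.292) and 0.334 in replicate 2 (0.319 to 0.349), so Mir27b was 3.53-fold and 3.00-fold higher. Mir23a to Mir23b gave 0.790 (0.782 to 0.798) and 1.15 (1.14 to 1.16): Mir23b was 1.27-fold higher in replicate 1 and Mir23a 1.15-fold higher in replicate 2. Both Mir23 ratios differed from 1 by a two-sided exact binomial test with Benjamini-Hochberg adjustment over 6 tests (adjusted p = 4.01e-242 in replicate 2, and 0 to machine precision in replicate 1), in opposite directions. Mir24-2 to Mir24-1 gave 2.59 in replicate 1 (2.22 to 3.03; adjusted exact p = 6.86e-38) and 0.946 in replicate 2 (0.822 to 1.09; adjusted exact p = 0.46). Averaged over libraries as geometric means, the ratios were 0.954, 0.307 and 1.57 for miR-23, miR-27 and miR-24. Of the 3 pairs, the paralogs of miR-27 alone were ordered the same way in both libraries beyond counting error.

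By cluster, the chromosome 8 genes held 41.7% of the members' counts in replicate 1 (41.5 to 41.9) and 52.2% in replicate 2 (52.0 to 52.4), a mean of 47.0% ± 7.42 (n = 2). Neither cluster led in both libraries. Without the miR-23 genes the chromosome 8 share was 25.2%, which rests mainly on Mir27a against Mir27b.

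Within each cluster the hairpins were counted very unequally although they lie close together. In the chromosome 8 cluster Mir23a made up 93.1% and 97.5% of counts, Mir27a 6.08% and 2.15%, and Mir24-2 0.770% and 0.320%. In the chromosome 13 cluster Mir23b made up 84.4% and 92.5%, Mir27b 15.4% and 7.03%, Mir24-1 0.213% and 0.369%, and Mir3074-1 0.0149% and 0.110%. Mir23a exceeded Mir27a 15.3-fold in replicate 1 (14.9 to 15.8) and 45.4-fold in replicate 2 (43.6 to 47.2). Mir23b exceeded Mir27b 5.49-fold (5.40 to 5.58) and 13.2-fold (12.9 to 13.5). In both clusters and both libraries the order was thus miR-23, then miR-27, then miR-24.

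**Figure D3:**
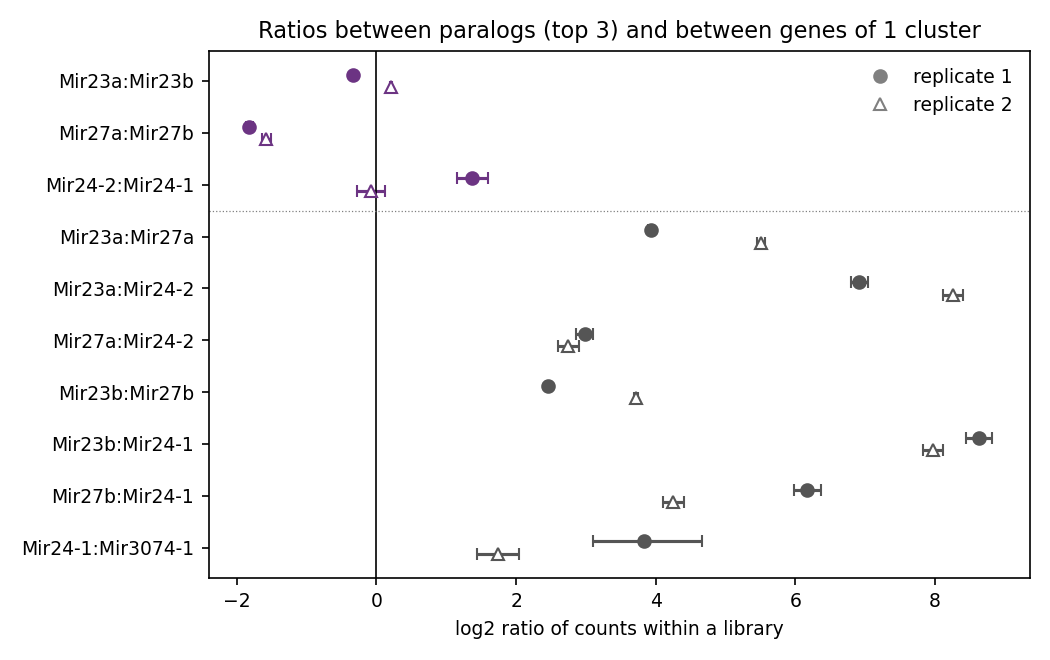
Log2 ratio of counts within a library for the 3 pairs of paralogs (top) and for 7 pairs of genes from 1 cluster, with circles for replicate 1, triangles for replicate 2 and bars for 95% exact intervals. The Mir23a:Mir23b points lie on both sides of 0, at -0.34 and 0.20, while Mir23a:Mir27a stands at 3.94 in replicate 1 and 5.50 in replicate 2.

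Other microRNA clusters gave a measure of how usual such inequality is in these libraries. Of 16 compared, 15 had all their genes detected. The highest gene of a cluster exceeded its lowest by a log2 ratio of 0.65 to 8.21 (median 4.66, mean of the libraries). Only 4 of the 15 had 3 genes and the rest were pairs, so the median covers clusters of unlike size. The chromosome 13 cluster, counted without Mir3074-1, had the widest of all 17 at 8.30, and the chromosome 8 cluster came after it at 7.59, with Mir29a and Mir29b-1 (8.21) between them. The 3-gene cluster of Mir99a, Mirlet7c-1 and Mir125b-2 was close at 7.56, and that of Mir99b, Mirlet7e and Mir125a far narrower at 1.54. In both miR-23, miR-27 and miR-24 clusters the lowest gene has an arm found whole at another locus and the highest has none among its listed arms. Of the 13 other clusters whose highest and lowest genes both had listed arms, the lowest gene had such an arm in 9 and the highest in 1. The part of shared arms in these gaps was not tested.

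**Figure D4:**
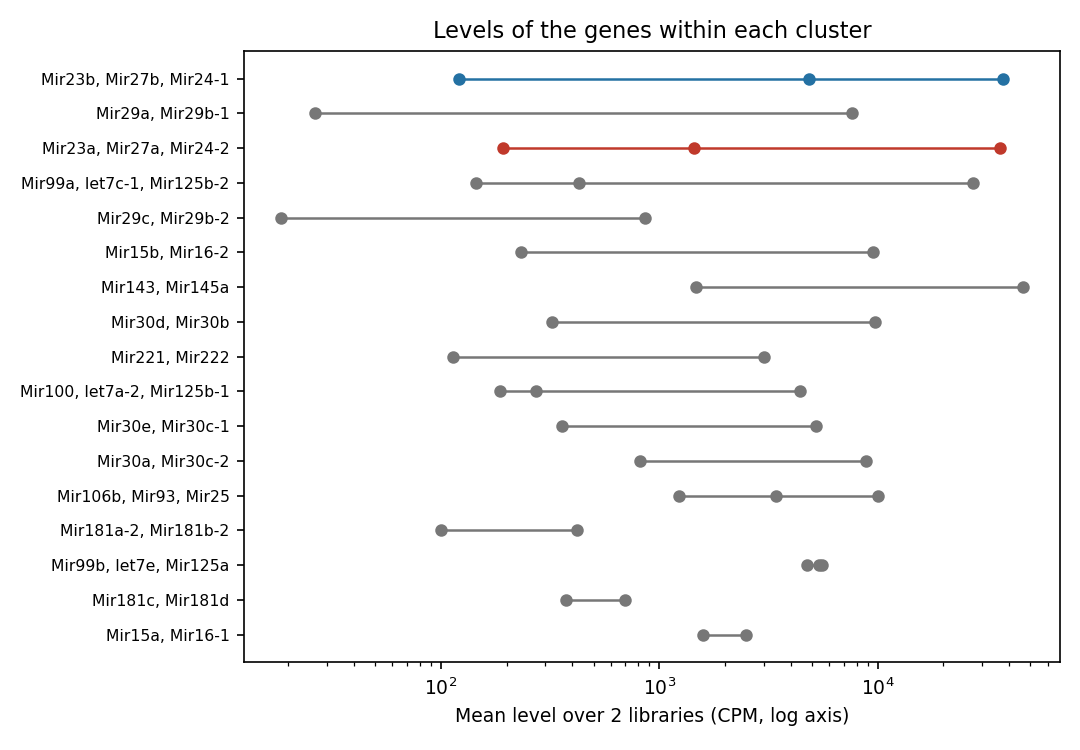
Mean level over both libraries (CPM, log axis) of each gene in 17 clusters, ordered by the log2 ratio of the highest to the lowest gene; red is the chromosome 8 cluster, blue the chromosome 13 cluster and grey the others. The blue line stands at the top with a log2 span of 8.30, and the red line just below the pair of Mir29a and Mir29b-1 with 7.59.

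Comparison of the 2 libraries asked how stable each gene's level was from sample to sample. The miR-27 genes and Mir24-2 were lower in replicate 2, Mir23a, Mir24-1 and Mir3074-1 were higher, and Mir23b did not pass the test. A two-sided exact binomial test that took each library's total as its scale, adjusted by Benjamini-Hochberg over 306 genes, called 6 of 7 members, against 61.1% of all genes tested. It called 3 members higher (background 19.6%) and 3 lower (background 41.5%) in replicate 2. The test compares 2 libraries and no conditions. The members' median log2 ratio of replicate 2 over replicate 1 was -0.01, and that of all detected genes -0.19.

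Mir27b had 16548 and 7838 counts and was 2.41-fold lower in replicate 2 (2.35 to 2.48). Its paralog Mir27a, on another chromosome, had 4685 and 2617 counts and was 2.05-fold lower (1.95 to 2.15; adjusted exact p = 4.98e-197). Mir24-2 was 1.74-fold lower (1.53 to 1.98; adjusted exact p = 3.13e-17). The miR-27 genes together made up 0.876% of all counts in replicate 1 and 0.377% in replicate 2. With factors from TMM or DESeq2, which shift the median gene from a log2 ratio of -0.19 to 0.03 or 0, the 3 genes stayed lower, at log2 ratios of -1.05 or -1.08 for Mir27b, -0.81 or -0.84 for Mir27a and -0.58 or -0.61 for Mir24-2.

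Mir23a was 1.45-fold higher in replicate 2 (1.43 to 1.46) and Mir24-1 1.57-fold higher (1.33 to 1.85; adjusted exact p = 7.14e-08). Mir3074-1, with 16 and 123 counts, was 6.73-fold higher (3.98 to 12.1; adjusted exact p = 3.36e-18), and 3 of the 306 genes had a larger difference in either direction. Mir23b was nearly level at a log2 ratio of -0.01 (90841 and 103075 counts; adjusted exact p = 0.18), with 299 genes showing a larger difference. Its direction rested on the scale, since TMM factors gave 0.21 and DESeq2 factors 0.18, both past the test. At 1.5-fold or more, 5 members were called, against 36.6% of all genes, 2 of them higher (background 11.1%) and 3 lower (background 25.5%).

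A test that allows for more than counting error made few calls. edgeR's exact test with its common dispersion (a biological coefficient of variation of 0.383, estimated from these 2 libraries themselves) called 2 of 306 genes, 0.654%, namely Mir451a and Mir26a-2, and 0 of the 7 members. With the dispersion taken from the difference under test, a lack of calls there does not show that the members were stable. Mir3074-1 was the 1 member, among 17 genes in all, with an unadjusted p under 0.05 in that exact test (p = 0.0029, adjusted p = 0.20). Mir27b had p = 0.12 and Mir27a p = 0.20 before adjustment by the same exact test.

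**Figure D5:**
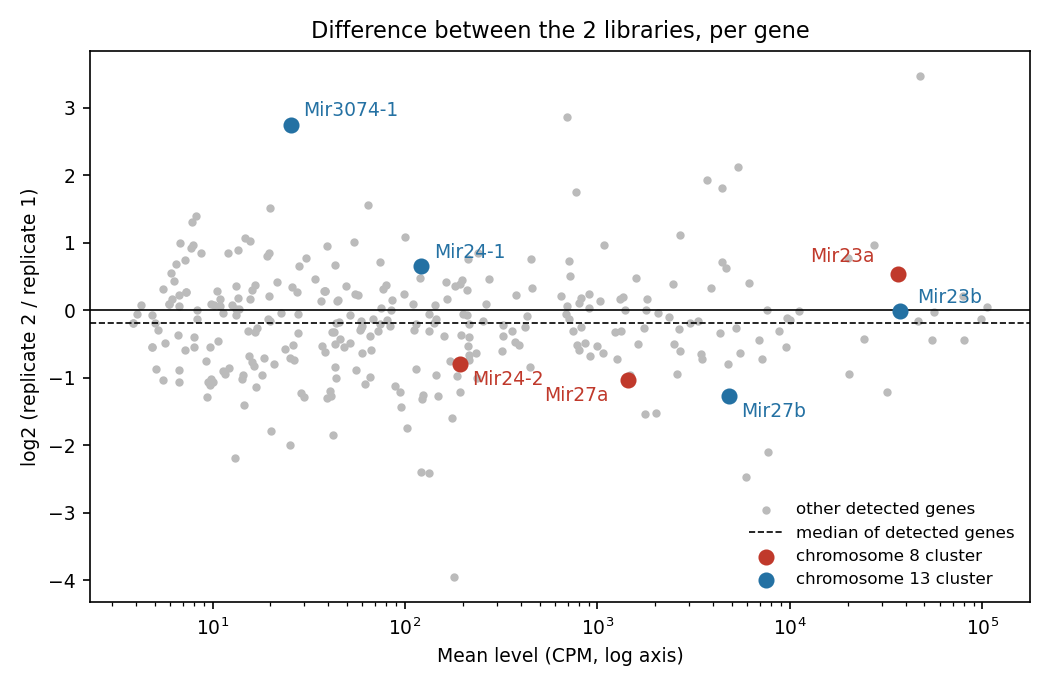
Log2 ratio of replicate 2 over replicate 1 against mean level (CPM, log axis) for the 306 detected genes in grey, with the 7 members coloured by cluster and the dashed line at the median of -0.19. Mir27a, Mir27b and Mir24-2 lie low at -1.03, -1.27 and -0.80, Mir23b at -0.01, and Mir3074-1 high at 2.75.

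Genes of 1 cluster did not keep their proportions from library to library. All 10 pairs compared, 3 of paralogs and 7 within a cluster, differed in ratio beyond counting error by a two-sided Fisher's exact test with Benjamini-Hochberg adjustment over the 10 pairs, the largest adjusted p being 0.022 for Mir27a to Mir24-2. Among neighbours on chromosome 8, the ratio differed between libraries 2.96-fold for Mir23a to Mir27a and 1.17-fold for Mir27a to Mir24-2. Among those on chromosome 13, it differed 2.40-fold for Mir23b to Mir27b and 3.79-fold for Mir27b to Mir24-1. It differed 1.18-fold for Mir27a to Mir27b, which lie on different chromosomes, 1.46-fold for Mir23a to Mir23b and 2.74-fold for Mir24-2 to Mir24-1. In the other 15 clusters the spread of log2 ratios among the genes of a cluster ran from 0.05 to 2.93 (median 0.68), against 1.57 for the chromosome 8 cluster and 1.92 for the chromosome 13 cluster without Mir3074-1. Both lie within that range, so shifts of this size occurred in other clusters too. Most of the 15 were pairs, and the 4 with 3 genes had spreads of 0.50, 1.69, 1.92 and 2.93.

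Reads of Mir23a, Mir27a, Mir24-2, Mir23b and Mir27b lay on the gene's own strand alone, with 0 opposite-strand counts in each library. Mir24-1 and Mir3074-1 occupy the same place on opposite strands. Of the 245 reads counted there in replicate 1, 16 (6.53%, 3.78 to 10.4) were on the Mir3074-1 strand. In replicate 2 these were 123 of 534 (23.0%, 19.5 to 26.8). The ratio of Mir24-1 to Mir3074-1 was accordingly 14.3 in replicate 1 and 3.34 in replicate 2 (adjusted exact p = 4.28e-09, Fisher's test). At the chromosome 8 locus, Mir3074-2, opposite Mir24-2, had 0 counts in both libraries, where 3 counts would be the limit for reads that map there alone. The listed arm of Mir3074-1 also lies whole at this locus, and reads mapping to both places were given to neither gene. The 0 therefore sets no limit on reads of that arm. The strand shares and the ratio of Mir24-1 to Mir3074-1 likewise leave out reads that map to both loci. In the deposited column that counts either strand, Mir24-2, Mir24-1 and Mir3074-1 are all at 0, since reads over genes on both strands then belong to none.

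Gene lists for the heart's cell types give the setting of these levels. The endothelium list, led by Mir126a, the microRNA of vessel integrity, held 7.70% and 8.82% of counts, and the 7 members 7.62% and 8.42%. Of its 4 genes 3 were detected, and Mir126a alone held 7.37% and 8.53%. The other detected genes went the other way, with Mir221 1.14-fold and Mir222 1.82-fold lower in replicate 2. A wider list of angiogenesis microRNAs had 18 of 23 genes detected, of which 14 passed the binomial test between libraries (background 61.1% of all detected genes). By at least 1.5-fold, 2 were higher (background 11.1%) and 4 lower (background 25.5%). Its median log2 ratio was -0.18, near the -0.19 of all detected genes. The cardiac remodelling list had 15 of 18 detected, of which 12 passed the test against the same background of 61.1%. By at least 1.5-fold, 1 was higher (background 11.1%) and 10 lower (background 25.5%), with a median of -0.72. The erythroid list, 1.16% of counts in replicate 1 and 9.57% in replicate 2 with all 4 matched genes detected, differed most between the libraries among these lists, 8.28-fold. Most of this was Mir451a, which held 0.782% and 8.68% of counts and was 11.1-fold higher in replicate 2. Mir144 was 3.49-fold and Mir486 1.12-fold higher, and Mir3107, opposite Mir486, did not pass the binomial test. The fibroblast list stood at 1.13% and 0.259%, with 4 of 6 genes detected, the smooth muscle list at 5.07% and 4.45% with both detected, and the leukocyte list at 0.639% and 0.516% with all 5 matched genes detected. None of these lists had a gene at 0 in both libraries. Their part in the members' differences was not tested.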

How the data were processed

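Small RNA of 2 heart libraries was analysed from the deposited raw counts of reads per microRNA gene, which carry no normalization. Per the labels, reads were placed on mm10, with GENCODE M21 named in a deposited text file. Aligner, counter and trimming: not given in the sources used here. From their values, the 3 count columns were read as either, own and opposite strand; own-strand counts were used. The first 4 lines, which name no gene, held 70.0% and 65.3% of reads and were left out of totals. Counts were scaled to CPM of each library's microRNA total (2424441 and 2770301 counts). Genes with at least 10 counts in both libraries were called detected. Tests were exact binomial and Fisher's tests with Benjamini-Hochberg adjustment at 0.05, and edgeR's exact test with a common dispersion from an intercept alone; p-values measure only the spread or counting error of these 2 samples. Quasi-likelihood tests need a contrast, which the labels do not give. The binomial and edgeR tests were tested on simulated data.

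Shared sequence was searched as exact 20-base windows over the M21 microRNA hairpins on both strands, leaving out overlapping genes; no genome was searched. All 7 members were to be named, with their neighbours in level, the 3 genes nearest in level over both libraries (of which the nearest is given) and genes of the lists and clusters compared. The members and lists were chosen with earlier results of these data known. Alternatives were the either-strand column, other denominators, count filters, TMM and DESeq2 size factors (DESeq2's median-of-ratios formula was computed directly), totals without Mir451a, and each replicate alone. Tools were edgeR 4.0.16 in R 4.3.3, and scipy 1.17.1, pandas 2.3.3, matplotlib 3.10.9 and numpy 2.4.6 in Python 3.11.15.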

Additional observations from a re-analysis of the deposited data

Results flagged for a closer look

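Multimapping reads, which went to no gene, numbered 3992614 in replicate 1 and 3410568 in replicate 2, and no comparison here uses them. How many of them carry miR-24-3p, miR-3074-5p or shortened miR-23 and miR-27 3′ arms was not tested, as the tables do not give their sequences.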

How the results depend on the processing

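No paired analysis was possible because the labels give 1 group. With either-strand counts the members' share was 10.7% in place of 8.02%, Mir23a stood at 49048 CPM and Mir23b at 50073, and Mir24-2 and Mir24-1 at 0. The raw counts of Mir23a and Mir23b were the same in both columns. Their CPM rose because the either-strand totals were lower, at 1906012 and 1963878 counts. The share was 2.60% of all reads and 3.33% with multimapping reads in the denominator. The chromosome 8 share was 25.2% without Mir23a and Mir23b. Each replicate alone gave 7.62 to 8.42% for the members' share, 41.7 to 52.2% for the chromosome 8 share, and ratios of 0.790 to 1.15 for miR-23, 0.283 to 0.334 for miR-27 and 0.946 to 2.59 for miR-24. Members called numbered 6 of 7 in the main test (61.1% of all genes tested), 7 of 7 with TMM factors (59.2%), DESeq2 factors (59.5%) or totals without Mir451a (58.0%), and 6 of 7 without a count filter (26.8%). They numbered 5 of the 6 with at least 100 counts (75.8%), 4 of the 4 tested with either-strand counts (56.0%), and 0 of 7 with edgeR's common dispersion, which called 2 genes in place of 187. Genes called were split into 60 higher and 127 lower, 97 and 84 with TMM factors, and 94 and 88 with DESeq2 factors. The log2 ratio of Mir23b turned from -0.01 to 0.21 with TMM, 0.18 with DESeq2 factors, 0.14 with either-strand counts and 0.11 without Mir451a in the totals. No other member changed direction under an alternative that gave it a value. Mir24-2 was under 1.5-fold with TMM factors (1.497-fold). Mir23a, under 1.5-fold in the main test, was over it with TMM (1.68-fold) and DESeq2 factors (1.65-fold), either-strand counts (1.61-fold) and totals without Mir451a (1.57-fold). Differences between libraries have no value with a replicate left out, and the either-strand column gives none for the miR-24 and miR-3074 genes. With 16 counts in replicate 1, the level of Mir3074-1 is the least certain.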
